A study of Mus musculus with 6 samples.

Results

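VEGF ligands, angiopoietins and 3 other secreted regulators of blood vessel growth were followed in cultured mouse dermal fibroblasts with and without thrombospondin-2, itself an inhibitor of angiogenesis. The genes were Vegfa, Vegfb, Vegfc, Vegfd, Pgf, Angpt1, Angpt2, Angptl2, Angptl4 and Serpinf1. They were chosen by symbol from a fixed list, and all 10 were found among the 23407 genes of the table. All 10 also passed the filter for testing, a mean of at least 10 normalised reads over the 6 libraries, as did 14707 genes in all.

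The cells were grown from dorsal skin of mice aged 12 weeks, enriched for fibroblasts in culture, and their poly(A) RNA was sequenced in bulk at passage 1. The WT group held 3 libraries and the TSP2KO group, from mice without thrombospondin-2, another 3. The labels name no treatment and do not give the knockout allele, the strain, or how many animals stand behind a group. A p-value here therefore speaks only of the spread from library to library, part of which may be technical. Estimated depth lay between 14776502 and 34599855 reads per library.

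Thbs2, which encodes thrombospondin-2, was measured first as a check of the labels. Its level was 122061 normalised reads in WT 1 and 116720 in WT 2, but 8841 in the library labelled WT 3. In the TSP2KO libraries it was 5177, 6635 and 4891. Over all 6 libraries Thbs2 had a log2 fold change of -3.18 (SE 0.95, limma adjusted p = 0.318), and with the library labelled WT 3 left out it was -4.43 (SE 0.22, limma adjusted p = 0.00257). That library was singled out by its Thbs2 value, so the fit without it is no independent test of Thbs2. In Thbs2 the library labelled WT 3 thus went against its label, and the fold changes of the members and the medians of the lists are given with it and without it. In the summed macrophage markers, Cxcl12 and Dcn, given below, it lay above every TSP2KO library, as did WT 1 and WT 2. Its summed keratinocyte markers were the highest of all, with TSP2KO 1 and TSP2KO 2 next. Over the 14707 tested genes its log2 values correlated at 0.892 with both WT 1 and WT 2 and at 0.96, 0.939 and 0.88 with TSP2KO 1, TSP2KO 2 and TSP2KO 3, across genes, which are not independent replicates. The fibroblast markers were present in every library, with a summed level of 172548 to 331801 normalised reads in WT and 134919 to 222629 in TSP2KO.

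Members of the VEGF family are secreted dimers that act on receptor tyrosine kinases of endothelial cells. Vegfa signals mainly through Kdr and also binds Flt1, Vegfb and Pgf bind Flt1, and Vegfc and Vegfd act on Flt4, the receptor of lymphatic endothelium. Angiopoietin-1 activates the receptor Tek and steadies vessels, whereas angiopoietin-2 binds the same receptor and can oppose it. Fibroblasts and other stromal cells of skin are a source of several of these ligands, while angiopoietin-2 is best known from endothelial cells.

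No member differed between TSP2KO and WT past the threshold, a limma adjusted p under 0.05 over all genes tested (0 of 10 members; 0.0612% of all tested genes passed). At an unadjusted limma p under 0.05 there were 2 members, Vegfd and Pgf, both lower in TSP2KO, against 9.75% of all tested genes in either direction (6.09% lower and 3.66% higher). Without the library labelled WT 3, Pgf passed and the other 9 members did not, against 5.17% of all tested genes. The median log2 fold change of the 10 members was -0.38, and that of all tested genes was -0.01. Of the 10 members, 7 had a lower mean log2 value in TSP2KO and 3 a higher one, against 7579 lower and 7128 higher of the 14707 tested genes. The groups did not overlap for 3 members (Vegfd and Pgf lower, Angptl2 higher), against 14.2% of all tested genes (8.27% lower and 5.90% higher).

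The members spanned a wide range of levels. Per length of exon, Serpinf1 was the most abundant at a mean of 9794 normalised reads per kb over the 6 libraries, above 99.8% of the tested genes with a known length. Angptl2 followed at 3747 normalised reads per kb, above 99.1% of them. Angpt2 stood at 501 and Pgf at 287 normalised reads per kb. Vegfd was at 77.0, Vegfa at 49.1, Angptl4 at 43.7, Vegfc at 39.7, Angpt1 at 25.4 and Vegfb at 10.9 normalised reads per kb. Serpinf1 lay above Angptl2 in every library, by 2.19- to 3.59-fold per kb, and Angptl2 lay above Angpt2 in every library. From Angpt2 downwards, the ranges over libraries of each neighbouring pair in this order overlapped. Compared within each library, Pgf still lay above Vegfd per kb in all 6, as did Angpt1 above Vegfb. The other neighbouring pairs from Angpt2 downwards changed order between libraries. Members further apart in the order could be separate too: Pgf exceeded Vegfa per kb in every library, by 1.88- to 12.2-fold, and Vegfa exceeded Vegfb by 2.68- to 7.95-fold.

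**Figure D1:**
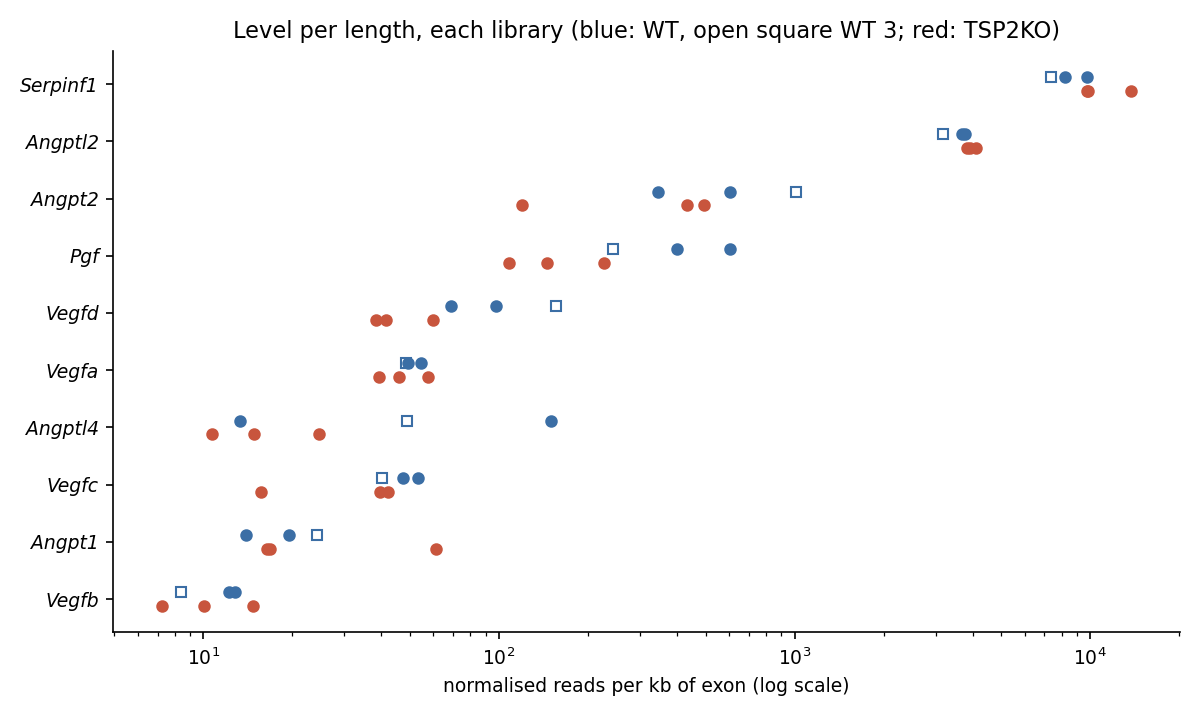
Level of each member in each library, as normalised reads per kb of exon on a log axis, with WT in blue (the library labelled WT 3 as an open square) and TSP2KO in red. Serpinf1 and Angptl2 sit apart at the top, at means of 9794 and 3747, and Vegfb is lowest at 10.9.

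The members also differed in how far they moved between libraries. Angptl2 was the steadiest, with a 1.29-fold range from the lowest to the highest library, and only 3.15% of tested genes had a smaller SD of log2 values. Vegfa was steady as well, with a 1.46-fold range. Angptl4 was the most variable, with an SD above that of 95.1% of tested genes, followed by Angpt2 with an 8.47-fold range. Pgf varied 5.58-fold, Angpt1 4.39-fold, Vegfd 4.05-fold, Vegfc 3.40-fold, Vegfb 2.03-fold and Serpinf1 1.87-fold.

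**Figure D2:**
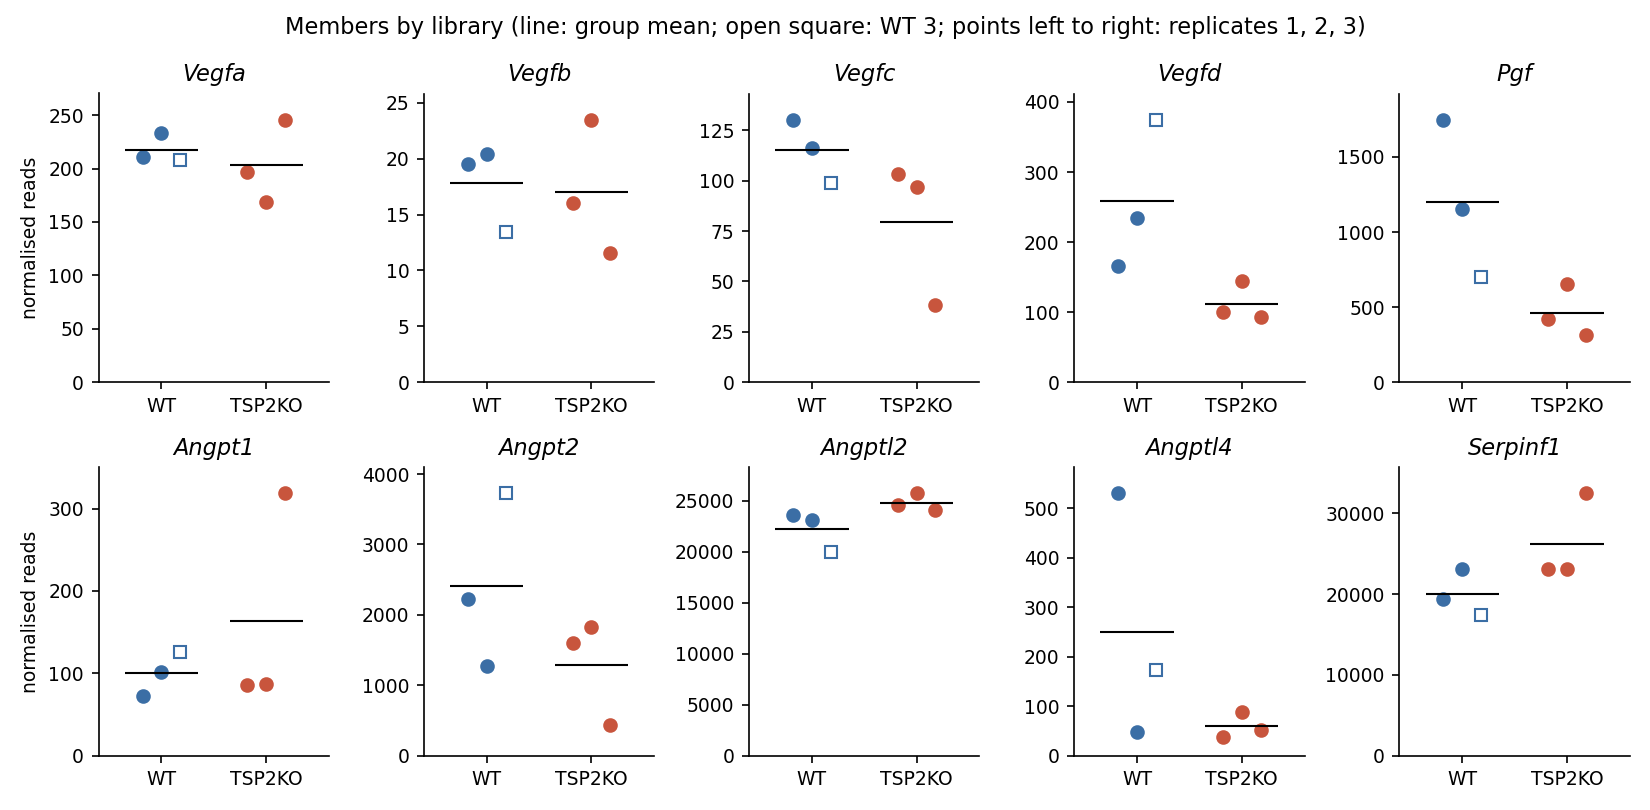
Normalised reads of each member in the 6 libraries, on linear axes from 0, with replicates 1, 2 and 3 from left to right in each group, the group mean as a line and the library labelled WT 3 as an open square. Vegfd and Pgf lie lower in each TSP2KO library than in each WT library, while Vegfa, Vegfb and Angpt1 overlap between the groups.

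The stretches before the starts of 4 VEGF ligand genes are shown as sequence, because these related genes differ in the motifs they hold there. Each stretch is read 5′ to 3′ on the gene's strand from RefSeq on GRCm38.p6, the mm10 assembly, and holds no annotated exon. The stretches are chr17:46032378-46032627 (minus strand), chr19:6987652-6987901 (minus strand), chr8:54077282-54077531 (plus strand) and chrX:164373272-164373377 (plus strand). Capitals mark the GC box, GGGCGG or CCGCCC, on either strand.
Vegfa: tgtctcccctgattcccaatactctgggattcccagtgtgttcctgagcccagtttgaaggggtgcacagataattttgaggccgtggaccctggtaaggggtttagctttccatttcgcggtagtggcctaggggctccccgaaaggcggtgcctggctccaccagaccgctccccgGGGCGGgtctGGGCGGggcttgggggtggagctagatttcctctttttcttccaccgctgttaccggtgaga
Vegfb: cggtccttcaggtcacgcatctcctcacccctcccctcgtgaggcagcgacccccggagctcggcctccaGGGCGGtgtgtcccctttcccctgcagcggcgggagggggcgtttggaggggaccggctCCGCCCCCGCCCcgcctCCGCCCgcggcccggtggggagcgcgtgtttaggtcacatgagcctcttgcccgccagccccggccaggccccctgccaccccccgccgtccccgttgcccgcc
Vegfc: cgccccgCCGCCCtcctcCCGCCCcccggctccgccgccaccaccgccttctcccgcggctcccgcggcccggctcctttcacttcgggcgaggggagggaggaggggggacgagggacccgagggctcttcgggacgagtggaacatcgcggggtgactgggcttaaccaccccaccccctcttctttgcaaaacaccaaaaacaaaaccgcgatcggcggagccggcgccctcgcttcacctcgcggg
Vegfd: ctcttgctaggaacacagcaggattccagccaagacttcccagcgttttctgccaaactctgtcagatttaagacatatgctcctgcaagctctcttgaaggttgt

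The GC box, a short motif bound by Sp1-type factors in many promoters, occurred 2 times in the Vegfa stretch, 4 times in that of Vegfb and 2 times in that of Vegfc. It was not among the letters of the Vegfd stretch, which is shorter at 106 bases. Of the 32851 RefSeq windows of 300 bases, 35.7% held it. Also searched on both strands were the TATA box (TATAAA, in 13.6% of all windows), the hypoxia response core (ACGTG, in 19.6%) and the AP-1 motif (TGANTCA, in 7.8%). None of these 3 occurred in the stretches shown, so no match there overlapped a GC box. Outside them, the Vegfd window of 300 bases held 1 TATA box match. A window at another Vegfa start (chr17:46025114-46025413, minus strand) held 1 hypoxia response core and 1 GC box. A match of letters is a description of the window only.

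Vegfa, the principal growth factor for endothelial cells, lies on chromosome 17 (46016993 to 46032369, mm10, minus strand), 31.3 Mb from Thbs2. It had 211, 233 and 208 normalised reads in WT 1, WT 2 and WT 3. TSP2KO 1, TSP2KO 2 and TSP2KO 3 had 197, 168 and 246. The TSP2KO libraries held both the lowest and the highest value, so the groups overlapped completely. WT had a mean of 217 ± 13.8 and TSP2KO of 204 ± 39.1 (SD, n = 3 each), a log2 fold change of -0.11 (SE 0.21, limma adjusted p = 0.915). The 95% confidence interval of the ratio of TSP2KO to WT ran from 0.657 to 1.31. The log2 fold change was -0.14 without the library labelled WT 3 and turned to 0.02 without TSP2KO 2.

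Vegfb, a ligand of Flt1 linked to fatty acid handling, lies on chromosome 19 (6982473 to 6987651, minus strand) and was close to the filter. The WT libraries had 19.6, 20.4 and 13.5 normalised reads and the TSP2KO libraries 16.1, 23.5 and 11.6. At these levels a library held an estimated 13 to 52 reads of the gene, so counting error alone is wide. The groups overlapped, with means of 17.8 ± 3.78 and 17.1 ± 6.02 (SD, n = 3 each). Its log2 fold change was -0.09 (SE 0.43, limma adjusted p = 0.968), with a 95% interval of the ratio from 0.465 to 1.89. It was -0.27 without the library labelled WT 3, and its sign turned without WT 2 (0.01) and without TSP2KO 3 (0.14).

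Vegfc, a growth factor for lymphatic vessels, lies on chromosome 8 (54077606 to 54187096, plus strand). WT 1, WT 2 and WT 3 had 130.3, 116 and 98.8 normalised reads, and TSP2KO 1, TSP2KO 2 and TSP2KO 3 had 103, 96.8 and 38.3. The low mean of TSP2KO came largely from TSP2KO 3, since TSP2KO 1 lay above the library labelled WT 3. The log2 fold change was -0.65 (SE 0.41, limma adjusted p = 0.693). Without TSP2KO 3 it was -0.19, and without the library labelled WT 3 it was -0.75.

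Vegfd, the close relative of Vegfc, lies on the X chromosome (164373378 to 164402650, plus strand). WT 1, WT 2 and WT 3 had 166, 235 and 375 normalised reads. TSP2KO 1, TSP2KO 2 and TSP2KO 3 had 100.0, 144 and 92.6. Every TSP2KO library lay below every WT library, and the library labelled WT 3 was the highest of all 6. The means were 259 ± 106 and 112 ± 28.0 (SD, n = 3 each). By the means of the log2 values the groups were 2.21-fold apart (log2 fold change -1.14, SE 0.34, limma unadjusted p = 0.0117, adjusted p = 0.318). Leaving out the library labelled WT 3 gave -0.84 (SE 0.29, limma adjusted p = 0.137). The lower value in TSP2KO was thus seen in 3 of 3 libraries with and without that library, and passed in neither fit.

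Pgf, placental growth factor, which binds Flt1 and also acts on myeloid cells, lies on chromosome 12 (85166635 to 85177790, minus strand). WT 1, WT 2 and WT 3 had 1748, 1156 and 703 normalised reads. TSP2KO 1, TSP2KO 2 and TSP2KO 3 had 421, 656 and 313. All 3 TSP2KO libraries were below all 3 WT libraries, though TSP2KO 2 and the library labelled WT 3 lay close together. The means were 1202 ± 524 and 463 ± 175 (SD, n = 3 each). By the means of the log2 values the groups were 2.54-fold apart (log2 fold change -1.34, SE 0.39, limma unadjusted p = 0.0105, adjusted p = 0.311). In the library labelled WT 3 Pgf was at 0.484 of the mean of WT 1 and WT 2, and without it Pgf fell 3.21-fold (log2 fold change -1.68, SE 0.34, limma adjusted p = 0.0412). Of all tested genes, 2.75% passed as lower in that fit. The ratio of Pgf to Vegfa per kb was 12.2, 7.32 and 4.99 in WT and 3.15, 5.75 and 1.88 in TSP2KO, so that on this scale TSP2KO 2 lay above the library labelled WT 3.

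Both Vegfd and Pgf were lower in the TSP2KO libraries, which also had fewer macrophage transcripts. The 17 macrophage markers, all in the table, summed to 6245, 5167 and 3563 normalised reads in WT 1, WT 2 and WT 3. In the TSP2KO libraries they summed to 753 to 875. Within WT that sum had the order of Pgf but the reverse order of Vegfd. All 15 macrophage markers that could be tested were lower in TSP2KO, 2 of them, C1qb and Msr1, past the threshold (limma). Neither passed when WT 1, WT 2 or any TSP2KO library was left out, with limma adjusted p from 0.0947 to 0.405, while 12 of the 15 markers passed without the library labelled WT 3. Aif1 and Fcgr1 were at 0 in each TSP2KO library. The 4 lymphatic endothelial markers summed to 2245.5, 2452 and 3728 normalised reads in WT 1, WT 2 and WT 3, and in the TSP2KO libraries to 973, 1362 and 679. That sum was carried by Pdpn and had the order of Vegfd over the 6 libraries, whereas Prox1, Lyve1 and Flt4 were highest in WT 1, the lowest WT library for Vegfd. Lyve1 had 280, 157 and 147 normalised reads in WT and 1.72, 14.5 and 0 in TSP2KO. Its log2 fold change was -5.75 (SE 0.94, limma adjusted p = 0.111), and it passed without the library labelled WT 3 (limma adjusted p = 0.0326). Prox1 and Flt4 overlapped between the groups. In bulk RNA, fewer cells of a type and less RNA per cell cannot be told apart, and the part of these cells in the values of Vegfd and Pgf was not tested. The 3 genes most like Vegfd in pattern were Pdpn, Myd88 and Ptgs1, with Pearson correlations of log2 values of 0.992, 0.988 and 0.979 over the 6 libraries. Pdpn, podoplanin, a surface glycoprotein of lymphatic endothelium that fibroblasts also carry, had 1390, 2121 and 3422 normalised reads in WT and 864, 1066 and 654 in TSP2KO. Of 11514 genes compared, 11 had a correlation over 0.95 with Vegfd, and all these values rest on the same 6 libraries.

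**Figure D3:**
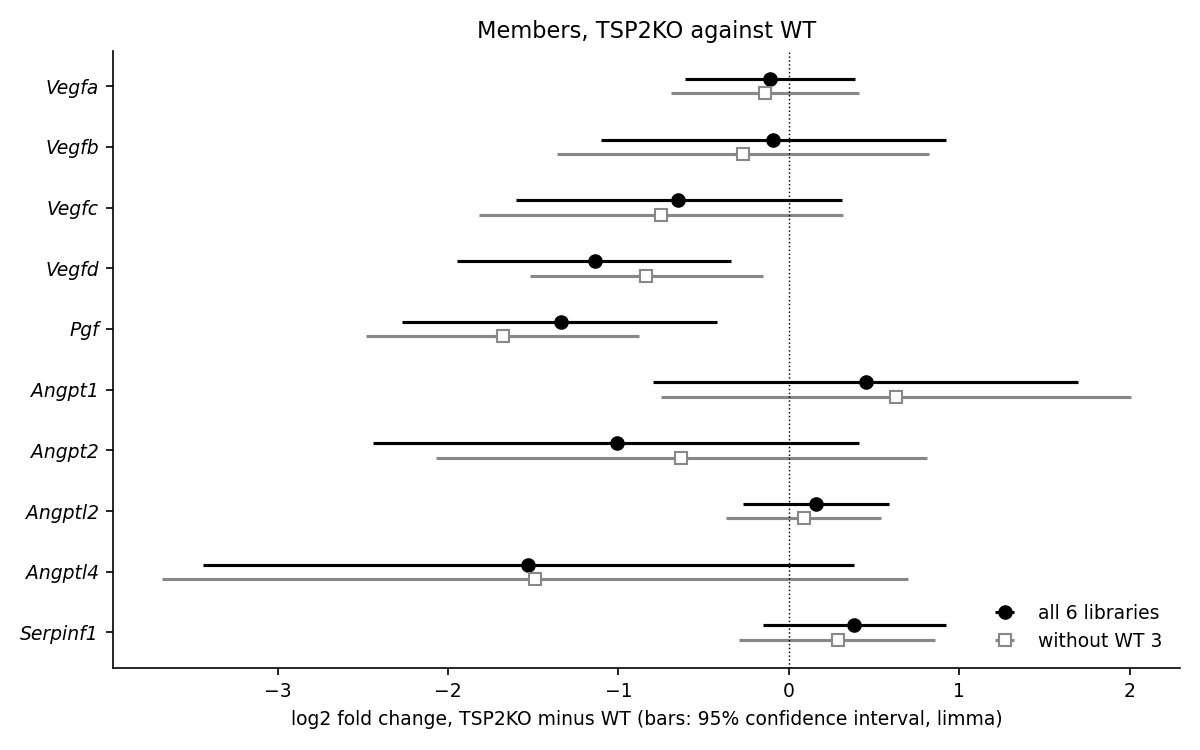
Log2 fold change of each member, TSP2KO minus WT, with its 95% confidence interval from limma, for all 6 libraries (filled circles) and without the library labelled WT 3 (open squares). The intervals of Vegfd and Pgf lie below 0 in both fits before adjustment for the number of genes, and those of the other 8 members span 0.

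Angpt1, the activating ligand of Tek made by mural and stromal cells, lies on chromosome 15 (42424723 to 42676977, minus strand). WT 1, WT 2 and WT 3 had 72.6, 102 and 126 normalised reads, and TSP2KO 1, TSP2KO 2 and TSP2KO 3 had 85.5, 87.2 and 319. A single library, TSP2KO 3, was high, and the other 5 lay within the WT range. The log2 fold change of 0.45 (SE 0.53, limma adjusted p = 0.837) became -0.18 without TSP2KO 3 and 0.63 without the library labelled WT 3. An antisense gene shares 14.2% of its exon bases, and whether reads were counted by strand is not given in the sources used here, so reads of that part are uncertain.

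Angpt2 lies on chromosome 8 (18690263 to 18741562, minus strand). It had 2229, 1269 and 3727 normalised reads in WT 1, WT 2 and WT 3. The TSP2KO libraries had 1597, 1824 and 439.8. The library labelled WT 3 was the highest and TSP2KO 3 the lowest, and the other 4 libraries were mixed between the groups. The means were 2408 ± 1239 and 1287 ± 742 (SD, n = 3 each), with a log2 fold change of -1.01 (SE 0.61, limma adjusted p = 0.679). It was -0.63 without the library labelled WT 3 and -0.36 without TSP2KO 3.

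Within each library Angpt2 exceeded Angpt1 per kb, by 43.3-, 17.6- and 41.6-fold in WT and by 26.4-, 29.5- and 1.95-fold in TSP2KO. TSP2KO 3 thus stood apart from the other 5 libraries in the balance of the 2 ligands. As a log2 ratio of normalised reads, Angpt1 to Angpt2 stood at -4.47 ± 0.73 for WT against -3.01 ± 2.21 for TSP2KO (SD, n = 3 each), a difference of 1.46 (exact permutation test, two-sided, p = 0.5, where 0.1 is the smallest value that 3 against 3 allows). Without TSP2KO 3 the difference was 0.19.

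Endothelial transcripts were present in all 6 libraries, and their sum was highest and lowest in the same libraries as Angpt2. The 13 endothelial markers summed to 1935, 928 and 7532 normalised reads in WT 1, WT 2 and WT 3, and in the TSP2KO libraries to 3582, 3272 and 784. Pecam1, the adhesion molecule CD31, had 500.1, 213, 2263, 987, 873 and 229.7 normalised reads in that order. Its lowest value was in WT 2, not in TSP2KO 3. Of the 13, Sox17 was at 0 in WT 1, WT 2 and TSP2KO 3. The 10 keratinocyte markers had the same highest and lowest libraries, at 35928 normalised reads in the library labelled WT 3 and 411 in TSP2KO 3. Their sum was 12754 and 11225 in TSP2KO 1 and TSP2KO 2, and 1461 and 528 in WT 1 and WT 2. Without the library labelled WT 3, where Angpt2 had a log2 fold change of -0.63, 10 of 12 tested endothelial markers were higher in TSP2KO, at a median of 0.35. The part of these cells in the Angpt2 values was not tested. Angpt4, a further ligand of Tek, was also measured, with 2109, 1097 and 572 normalised reads in WT and 407, 1283 and 436 in TSP2KO (limma log2 fold change -0.84, SE 0.59, adjusted p = 0.713, and -1.31 without the library labelled WT 3).

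**Figure D4:**
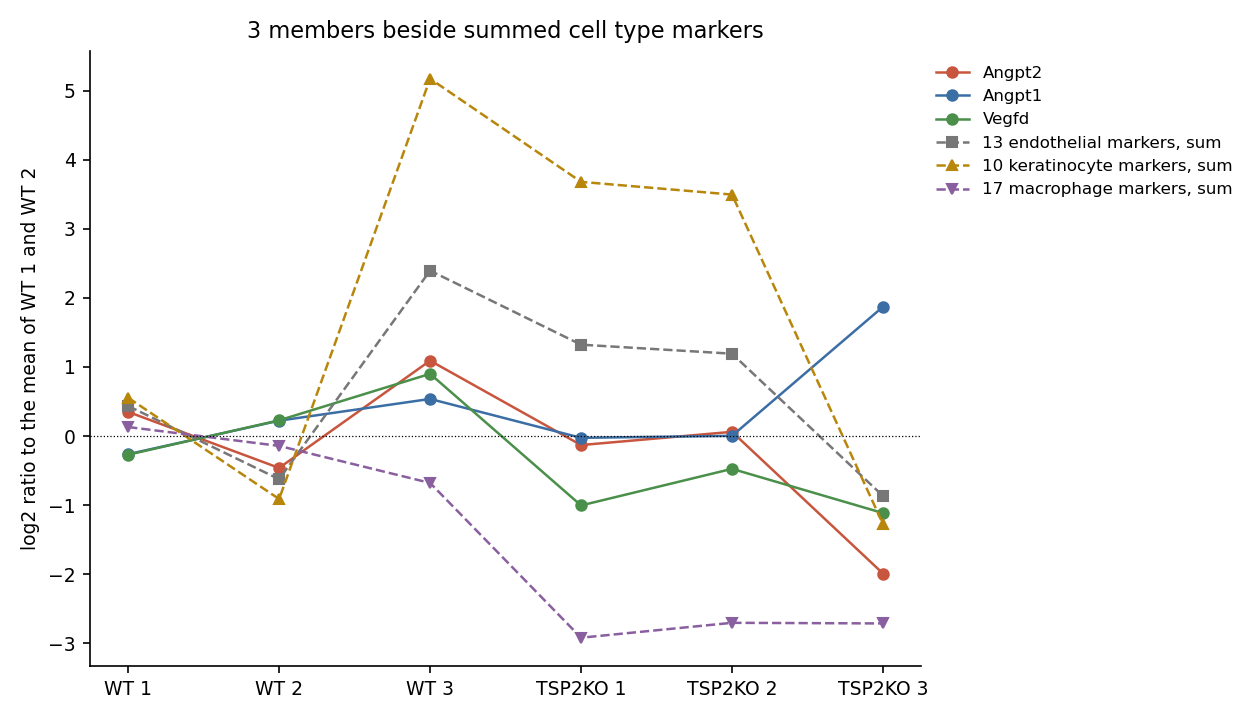
Log2 ratio of each library to the mean of WT 1 and WT 2 for Angpt2, Angpt1 and Vegfd (solid lines) and for the summed endothelial, keratinocyte and macrophage markers (broken lines), with lines joining the libraries only to guide the eye. Angpt2 and the endothelial and keratinocyte sums are highest in the library labelled WT 3 and lowest in TSP2KO 3, while the macrophage sum is low in all 3 TSP2KO libraries.

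Angptl2, a secreted angiopoietin-like protein that does not bind Tek and is known from inflammation and tissue remodelling, lies on chromosome 2 (33216069 to 33247717, plus strand). It had 23650.4, 23157 and 19982 normalised reads in WT 1, WT 2 and WT 3. The TSP2KO libraries had 24651, 25758.5 and 24138. All 3 TSP2KO libraries lay above all 3 WT libraries, but by little. The means were 22263 ± 1991 and 24849 ± 828 (SD, n = 3 each), 1.12-fold apart (log2 fold change 0.16, SE 0.18, limma adjusted p = 0.829). The 95% interval of the ratio ran from 0.830 to 1.51. A log2 fold change of 0.09 was left without the library labelled WT 3, the lowest of the 6.

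Angptl4, an inhibitor of lipoprotein lipase that is induced by fasting, hypoxia and PPAR agonists, lies on chromosome 17 (33773750 to 33781830, minus strand), 19.1 Mb from Thbs2. WT 1, WT 2 and WT 3 had 530.5, 47.1 and 173 normalised reads, and TSP2KO 1, TSP2KO 2 and TSP2KO 3 had 37.9, 87.3 and 52.5. The WT group held a very high library and also the second lowest of all, WT 2. The means of 250.2 ± 251 and 59.2 ± 25.4 (SD, n = 3 each) were far apart, yet the log2 fold change of -1.53 had an SE of 0.81 and did not pass (limma adjusted p = 0.631). The interval of the ratio ran from 0.0920 to 1.30. The difference was -1.49 without the library labelled WT 3 and -0.69 without WT 1. The genes most like Angptl4 were Clns1a, Uck2 and Ubash3b, each at a Pearson correlation of 0.966 or 0.967 over the 6 libraries, and their fold ranges were smaller than that of Angptl4.

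Serpinf1, pigment epithelium-derived factor, is a serpin without protease inhibition that limits vessel growth. It lies on chromosome 11 (75409769 to 75422701, minus strand). The WT libraries had 19451, 23087 and 17377 normalised reads, and the TSP2KO libraries had 23084, 23140.1 and 32483. TSP2KO 3 stood above the rest, while TSP2KO 1 and TSP2KO 2 were close to WT 2. The log2 fold change was 0.38 (SE 0.23, limma adjusted p = 0.678), against 0.29 without the library labelled WT 3 and 0.22 without TSP2KO 3, and the 95% interval of the ratio ran from 0.899 to 1.89. Serpinf1 exceeded Vegfa per kb by 152- to 180-fold in the WT libraries and by 213- to 250-fold in the TSP2KO libraries. No test was made of this ratio, and for Serpinf1 and Vegfa taken singly the groups overlapped. Among single tested genes, 14.2% did not overlap between the groups. The genes most like Serpinf1 in pattern were Srp54a, Epha3 and Peg13, with Pearson correlations of 0.995, 0.992 and 0.989. For Vegfa the most alike were Ccnc, Adprm and Top2b, at 0.991, 0.990 and 0.987.

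The rest of the pathway was followed through 9 lists holding 101 genes beside the members, of which 90 were tested. No gene of these lists passed with all libraries (limma). At an unadjusted limma p under 0.05 there were 22, 20 of them lower in TSP2KO, against 9.75% of all tested genes (6.09% lower). Of the 90, 64 had a lower mean log2 value in TSP2KO, as did 7579 of all 14707 tested genes. Without the library labelled WT 3, 11 passed as lower and 1 as higher, against 2.75% and 2.43% of all tested genes. Thbs2, the targeted gene, is among the lower ones, but its own values singled out the library left out. The other lower genes were Plat, Adamts2, Cxcl12, Col18a1, Timp2, Adamts1, Sema3a, Hif1a, Bnip3 and Ndrg1, and the higher one was Edn1, endothelin-1. Over the 90 genes the median was -0.39 with all libraries and -0.29 without the library labelled WT 3.

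All 7 tested receptors and co-receptors had a lower mean log2 value in TSP2KO, at a median of -0.57 on the log2 scale, and 0 had an unadjusted limma p under 0.05. Kdr, the main receptor of Vegfa, had 125, 26.3 and 162 normalised reads in WT and 117, 124 and 16.03 in TSP2KO. Tek had 108, 86.7 and 873 in WT and 303, 211 and 38.3 in TSP2KO. Flt4, the receptor of Vegfc and Vegfd, had the smallest p of the list, with 213, 76.9 and 103 in WT and 55.7, 119.7 and 13.4 in TSP2KO (limma log2 fold change -1.38, SE 0.77, adjusted p = 0.659). The values of Kdr and Tek were highest in the library labelled WT 3 and lowest in TSP2KO 3, as was the endothelial sum, in which both are counted. Without the library labelled WT 3, 5 of the 7 were lower, at a median of -0.34, and the log2 fold changes of Kdr and Tek turned to 0.10 and 0.48. Nrp1 and Nrp2, co-receptors that fibroblasts express themselves, stood at -0.28 (SE 0.23) and -0.17 (SE 0.28) on the log2 fold change scale. Kdr, Tek and Nrp2 were picked with their values known.

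Genes that process or release the lymphatic ligands were lower in most cases. Of 8 tested, 7 were lower, at a median of -1.0 on the log2 scale, and 4 at an unadjusted limma p under 0.05. Of all tested genes, 6.09% were lower at that p. Plat, tissue plasminogen activator, had 8884, 8699 and 3564 normalised reads in WT and 1398, 2736 and 1894 in TSP2KO (limma log2 fold change -1.75, SE 0.41, adjusted p = 0.214), and its adjusted p from limma was 0.0168 once the library labelled WT 3 was left out. Ccbe1, a secreted cofactor of Vegfc activation, had 1291, 1191 and 536 in WT and 343, 650.1 and 122 in TSP2KO (limma log2 fold change -1.64, SE 0.62, adjusted p = 0.444). Pcsk5, a proprotein convertase, had 283, 98.1 and 55.8 in WT and 17.2, 53.1 and 23.1 in TSP2KO (limma log2 fold change -2.02, SE 0.66). Adamts2, a procollagen peptidase, had a log2 fold change of -1.34 (SE 0.45) with all libraries and fell by 1.88 on the log2 scale without the library labelled WT 3 (limma adjusted p = 0.0127). In each of these 4 genes the library labelled WT 3 was the lowest of the WT group. Without it 7 of the 8 genes were again lower, at a median of -1.49.

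Of 15 tested inhibitors of angiogenesis, Thbs2 included, 11 were lower, at a median of -0.88 on the log2 scale, and 5 at an unadjusted limma p under 0.05, all lower. Of all tested genes, 6.09% were lower at that p. Without the library labelled WT 3, 12 were lower, at a median of -0.97. Dcn, decorin, a proteoglycan of fibroblasts, had 50984, 55417 and 38395 normalised reads in WT and 12199.7, 11095 and 2368 in TSP2KO (limma log2 fold change -2.80, SE 0.61, adjusted p = 0.182). Cxcl10, an interferon-induced chemokine, had 48.9, 53.0 and 77.0 in WT and 23.6, 11.7 and 11.6 in TSP2KO (limma log2 fold change -1.91, SE 0.40, adjusted p = 0.175). Sema3a, a repulsive ligand of Nrp1, had 494, 886 and 420.2 in WT and 251, 178 and 292 in TSP2KO (limma log2 fold change -1.27, SE 0.33, adjusted p = 0.258). Thbs1, the nearest relative of Thbs2, was highest in TSP2KO 3, with 199900, 150931 and 413988 normalised reads there and 137958, 217309 and 90489 in WT (log2 fold change 0.73, SE 0.48, limma adjusted p = 0.701). Thbs1 was picked with its values known. The summed fibroblast markers, Dcn among them, were also lower in TSP2KO 1 and TSP2KO 2 than in each WT library. In TSP2KO 3, the lowest library for Dcn, that sum was 222629 normalised reads, above the 172548 of the library labelled WT 3. Most of it came from Col1a1, Col1a2 and Col3a1, at 59283, 72488 and 81603 there, so the sum mainly followed collagen. Of the 8 fibroblast markers, 7 had a lower mean log2 value in TSP2KO, at a median of -1.07. Lum, like Dcn, was lowest in TSP2KO 3, with 6822, 7501 and 3675 in WT and 1513, 1385 and 86.4 in TSP2KO. The part of fibroblast content in these values was not tested. Thrombospondin receptors had 3 of 4 members lower, at a median of -0.53 (-0.36 without the library labelled WT 3), among them Cd47 with a log2 fold change of -0.78 (SE 0.28, limma adjusted p = 0.418).

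Other secreted angiogenic factors were divided, with 10 of 20 higher and 10 lower, at a median of -0.15 on the log2 scale. The median turned to 0.23 on leaving out the library labelled WT 3, with 12 higher and 8 lower. Cxcl12, a chemokine that draws endothelial progenitors, had 15965, 11471 and 11594 normalised reads in WT and 2252, 2677 and 559 in TSP2KO (limma log2 fold change -3.10, SE 0.56, adjusted p = 0.138). Pdgfc, a ligand of platelet-derived growth factor receptors, was higher in every TSP2KO library, with 445, 437 and 300.2 in WT and 597, 790.5 and 1149 in TSP2KO (limma log2 fold change 1.07, SE 0.29, adjusted p = 0.269). Adm, adrenomedullin, had 1580, 1355 and 2302 in WT and 1108, 498 and 817 in TSP2KO (limma log2 fold change -1.15, SE 0.33). Il6 had a log2 fold change of -2.54 (SE 0.70, limma adjusted p = 0.279). The 3 tested angiopoietin-like genes and relatives, Angptl1, Angptl6 and Angpt4, were all lower, with a median of -0.84 (-1.31 without the library labelled WT 3), and 0 reached an unadjusted limma p under 0.05.

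The oxygen-sensing and hypoxia lists were examined because Vegfa and Angptl4 are classical targets of hypoxia-inducible factors. Hif1a, the oxygen-labile subunit, had 4017, 2569 and 1302 normalised reads in WT and 640.0, 1227 and 768 in TSP2KO (limma log2 fold change -1.49, SE 0.43, adjusted p = 0.310). It fell by 1.93 on the log2 scale without the library labelled WT 3 (limma adjusted p = 0.0267). The 9 tested oxygen-sensing genes had a median of 0.05 (-0.06 without the library labelled WT 3). All 18 hypoxia targets, Vegfa among them, had a lower mean log2 value in TSP2KO, against 7579 of all 14707 tested genes. The median of the 18 was -0.36. At an unadjusted limma p under 0.05 there were 5, against 6.09% of all tested genes that were lower at that p. Leaving out the library labelled WT 3, 16 of the 18 were lower, at a median of -0.27, and Ldha (0.19) and Pgk1 (0.04) turned. Bnip3, a mitochondrial protein, came nearest to the threshold, with 2115, 1948 and 1362 in WT and 655, 693 and 634 in TSP2KO (limma log2 fold change -1.43, SE 0.21, adjusted p = 0.0974). Vegfa, at -0.11, had the smallest log2 fold change of the 18 with all libraries. The 9 tested PPAR targets had a median of -0.07 (-0.20 without the library labelled WT 3), with 0 at an unadjusted limma p under 0.05. Pdk4, another gene induced by fasting, had 182, 132 and 17.3 in WT and 55.7, 81.7 and 135 in TSP2KO, so that, like Angptl4, it was highest in WT 1, but it was lowest in the library labelled WT 3, where Angptl4 was the second highest. The log2 fold change of 0.17 turned to -0.85 without the library labelled WT 3. Pdk4 was picked with its values known.

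**Figure D5:**
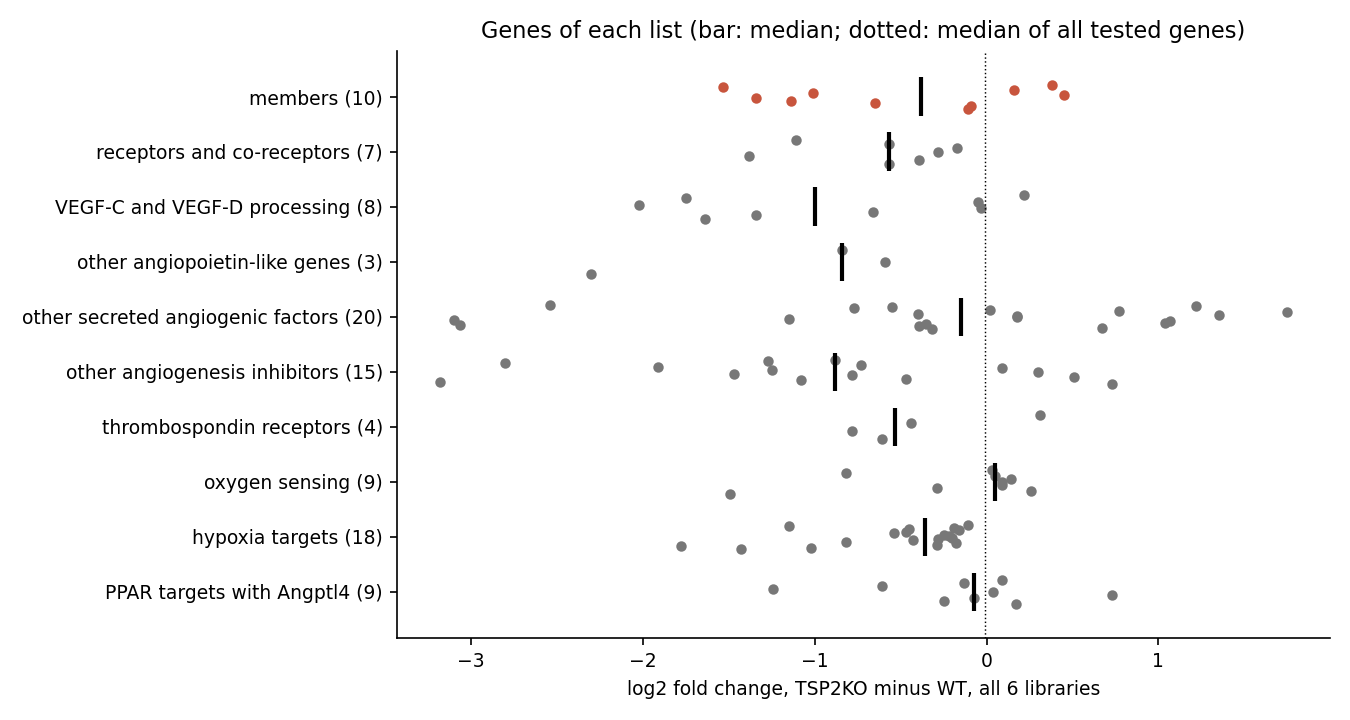
Log2 fold change, TSP2KO minus WT over all 6 libraries, of the tested genes of each list (dots, their number in brackets) with the list's median (bar) and the median of all tested genes (dotted line, -0.01). The members have a median of -0.38, and over these 6 libraries the 18 hypoxia targets lie below 0, of which Ldha and Pgk1 turn without the library labelled WT 3.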

How the data were processed

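The authors deposited 1 normalised signal per gene and library, for 23407 genes and 6 libraries, under the name of normalised counts. Per the submitters' processing notes, which give no roles, the build was mm10 and the tools included STAR, DESeq2 and Partek. Libraries were stranded TruSeq, per the labels' protocols. The sources used here give neither annotation release nor counting options. Column names matched samples by genotype and replicate number, although their library suffixes differ from the labels. Between 68.6% and 73.9% of values above 0 were whole multiples of the value of 1 read within 0.02 of a read, so reads were not recovered and no count test was run. Depth was estimated as each total divided by that step.

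The comparison of both groups used limma 3.58.1 (R 4.3.3) on log2(value + 1), over 14707 genes with a mean of at least 10, with a mean-variance trend, two-sided, Benjamini-Hochberg adjusted over all genes, threshold 0.05. A fold change is the difference between group means on that scale, so that changes of low genes come out too small. Exon lengths and overlaps came from GENCODE M21, whose coordinates 96.4% of genes matched after 1 base was taken off the stop. Promoters came from RefSeq, which held 7 of the 10 members. The fit was tested on simulated data.

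The members and lists were chosen with earlier results of these data known. All members and Thbs2 are named, with up to 4 genes of the smallest p per list, those that passed, and, for 4 members, the 3 genes of highest correlation among those with a mean of at least 50. Kdr, Tek, Nrp2, Thbs1, Pecam1, C1qb, Msr1, Prox1, Lyve1, Lum, Col1a1, Col1a2, Col3a1, Ldha, Pgk1 and Pdk4 were picked with their values known. Alternatives were pseudocounts of 0.1 and 10, no filter, a mean of at least 100, TMM rescaling, no trend, a replicate block and leaving out each library.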

Additional observations from a re-analysis of the deposited data

How the results depend on the processing

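No member passed under any of the 13 alternatives except Pgf without the library labelled WT 3 (limma adjusted p = 0.0412). Of the 10 members, 7 kept their direction in every setting in which they were tested. The direction turned for Vegfa without TSP2KO 2 (0.02; range -0.25 to 0.02), for Vegfb without WT 2 (0.01) and without TSP2KO 3 (0.14; range -0.34 to 0.14), and for Angpt1 without TSP2KO 3 (-0.18; range -0.18 to 0.77). Among the other genes tried it turned when single libraries were left out. Without the library labelled WT 3 it turned for Kdr (0.10), Tek (0.48), Pecam1 (0.83), Pdk4 (-0.85), Ldha (0.19) and Pgk1 (0.04), and without TSP2KO 3 for Kdr (0.56), Tek (0.32), Pecam1 (0.57), Pdk4 (-0.16), Nrp2 (0.06), Cd36 (0.28) and Epas1 (-0.14). With 1 library left out at a time the ranges were -1.18 to 0.56 for Kdr, -1.18 to 0.48 for Tek, -0.87 to 0.83 for Pecam1, -0.85 to 0.80 for Pdk4, -0.42 to 0.19 for Ldha, -0.36 to 0.04 for Pgk1, -0.40 to 0.06 for Nrp2, -1.08 to 0.28 for Cd36 and -0.14 to 0.55 for Epas1. The log2 fold change of Pgf ranged from -1.68 to -1.03 over the settings, and that of Vegfd from -1.42 to -0.84. Angptl4 ranged from -2.42 to -0.69 and Angpt2 from -1.41 to -0.36.

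Over all genes the count of lower genes, 9, became 0 with a pseudocount of 0.1, with no filter, with a mean of at least 100 and with the replicate block, 14 with a pseudocount of 10 and 15 without the trend. When single libraries were left out it ranged from 0 to 404, and the count of higher genes from 0 to 357, the upper values without the library labelled WT 3. In the same way the members that passed ranged from 0 to 1 and the other angiogenesis genes from 0 to 12. The cause was not tested. With the replicate block 0 members passed, as without it, and the adjusted p of Pgf was 0.206. The labels do not say whether the replicate numbers pair the libraries. Same-numbered libraries deviated from their group means with correlations of -0.422, -0.246 and -0.395, and no library correlated best with its own number. Deviations within so small a group depend on each other, so these correlations cannot settle whether the libraries were paired. Vegfb, with an estimated 13 to 52 reads, is limited by depth. Count tests were planned but not run, because whole reads were not recovered, and Vegfb and Vegfc had no value at a mean of at least 100. The scaling by trimmed means left the median of all genes at -0.01 on the log2 scale.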
